A study of Drosophila melanogaster with 8 samples.

Results

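The translation initiation factor genes of Drosophila melanogaster were taken as all genes whose FlyBase symbol starts with eIF followed by a digit, which gave 44 of the 17468 genes counted in RNA from whole embryos. Their transcripts were compared in 4 groups of 2 libraries each: zen[7] homozygotes at stage 6-7 (gastrula), zen[7]/TM3, ftz-lacZ heterozygotes at stage 6-7, zen[7] homozygotes at stage 5 (cellular blastoderm) and zen[7]/TM3, ftz-lacZ heterozygotes at stage 5. By these labels all embryos of both genotypes carried at least 1 zen[7] chromosome, and no group was labelled wild type. zen itself codes for a homeobox transcription factor that acts in the dorsal ectoderm, and TM3 is a rearranged balancer of chromosome 3 that carries the ftz-lacZ transgene. Homozygotes were told apart by PCR, by the lack of a lacZ product, and RNA came from pooled embryo extracts, for which the labels give N = 100. How the embryos were divided over the pools is not given, nor whether lacZ-positive embryos without zen[7] were set apart from heterozygotes. The p-values rest on the variation between pools alone. Because zen lies on chromosome 3, homozygotes and heterozygotes also differ in the rest of that chromosome, and 24 of the 44 initiation factor genes lie on it.

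Eukaryotic initiation brings the small ribosomal subunit to the start codon of an mRNA. eIF2 carries the initiator tRNA as a complex with GTP and is recharged by its exchange factor eIF2B, eIF3 is the large scaffold on the small subunit, and eIF4F binds the cap through eIF4E, unwinds the leader with the helicase eIF4A and is held together by eIF4G. eIF1, eIF1A and eIF5 act in scanning and start codon choice, and eIF5B joins the large subunit. In the Drosophila embryo these proteins are first made from maternal mRNA, and regulated cap binding is a classic control of maternal transcripts: eIF4EHP, a cap-binding relative of eIF4E that does not bind eIF4G, helps to repress caudal with Bicoid and hunchback with Nanos, Pumilio and Brat.

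Gene counts summed to between 29669956 and 37770105 per library. Levels are given as CPM, counts relative to the TMM-scaled library size, and levels of different genes are compared only per kb of annotated exon. The stages were checked with 6 cellularization genes (slam, nullo, bnk, halo, term and Z600), whose summed level was 180 and 180 CPM in homozygotes and 250 and 221 CPM in heterozygotes at stage 6-7, against 4396 and 3176 CPM in homozygotes and 3990 and 3438 CPM in heterozygotes at stage 5. The counts of zen were not lower in homozygotes at either stage (log2 difference 0.18, edgeR adjusted p = 1, at stage 6-7, and 0.40, adjusted p = 0.234, at stage 5), so they do not check the genotype labels. Homozygous stage 5 replicate 1 and heterozygous stage 6-7 replicate 1 stood apart from the other libraries of their stage on the first principal component, at -56.2 against -42.1 to -45.1 and at 38.9 against 48.8 to 51.1. Summed over the 3 measured marker genes of pole cells (pgc, osk and gcl) the level was 32.6 to 53.7 CPM, over the 7 of testis 0.28 to 0.83 CPM and over the 6 of chorion and follicle 0.59 to 1.15 CPM in the 8 libraries.

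Most initiation factor genes were detected in every library. Of the 44 genes, 38 had a count in every library, 2 had no count in any (eIF3g2 and eIF4E4), and 39 passed the filter on low counts and were tested. The 5 that did not pass were eIF3d2, eIF3g2, eIF4E4, eIF4E6 and eIF4E7, each a paralogue of a far more abundant factor. Summed over all 44 genes, initiation factor transcripts held 16189 and 16258 CPM in homozygotes at stage 6-7, 16645 and 15686 CPM in heterozygotes at stage 6-7, 18986 and 17778 CPM in homozygotes at stage 5, and 17141 and 17198 CPM in heterozygotes at stage 5. Every stage 5 library thus lay above every stage 6-7 library in the sum, but the stages overlapped when libraries were scaled by their totals alone (16655 to 17711 CPM at stage 6-7 and 16354 to 17218 CPM at stage 5). The library with the highest sum was the homozygous stage 5 replicate 1 that stood apart. Of the 44 genes, 18 share annotated exon bases with another gene, 9 of them over more than 5% of their length. Of these 9, eIF3h shares 16.8% with senju on the opposite strand, which rose with stage by 1.36 in homozygotes and 1.40 in heterozygotes on the log2 scale, and eIF2alpha 12.6% with rngo, also opposite, which rose by 0.35 and 0.27. The part of shared bases in the values of these genes was not tested.

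The plot of levels by gene shows the factors grouped by complex. The helicase eIF4A was highest, at 1389 CPM per kb on average over the 8 libraries. The 12 core subunits of eIF3 lay in a narrow band between 341 CPM per kb (eIF3f1) and 527 CPM per kb (eIF3i), a 1.55-fold range with a median of 412 CPM per kb. Their loosely held partner eIF3j, a subunit that can leave the complex, averaged 43.7 CPM per kb, and the core median was 9.44 times that level. eIF2A, which can deliver initiator tRNA without eIF2 in mammals and yeast, averaged 266 CPM per kb, and the scanning factors eIF5, eIF1 and eIF1A averaged 241, 207 and 185 CPM per kb.

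The cap-binding side of eIF4F was far less abundant than its helicase. eIF4E1, the main cap-binding protein, averaged 66.7 CPM per kb and eIF4G1, the scaffold, 54.3 CPM per kb. Per kb, eIF4A exceeded eIF4E1 20.2-fold in homozygotes and 19.2-fold in heterozygotes at stage 6-7, and 22.4-fold and 21.6-fold at stage 5. The helicase cofactors eIF4H1 and eIF4B averaged 144 and 103 CPM per kb. eIF5B, the GTPase of subunit joining, averaged 19.7 CPM per kb, eIF6, which keeps free large subunits from joining, 33.4 CPM per kb, and eIF2D, which can deliver tRNA without GTP in mammals, 39.1 CPM per kb.

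The 3 subunits of eIF2 averaged 86.6 (eIF2alpha, the subunit that stress kinases phosphorylate), 98.4 (eIF2beta) and 79.7 CPM per kb (eIF2gamma, the GTP-binding subunit). The order of these subunits was not the same at the 2 stages. At stage 6-7 eIF2beta was highest, at 124 CPM per kb in homozygotes and 128 CPM per kb in heterozygotes, and eIF2alpha lowest, at 86.4 and 87.2 CPM per kb. At stage 5 eIF2alpha was highest, at 86.8 CPM per kb in homozygotes and 85.8 CPM per kb in heterozygotes, and eIF2gamma lowest, at 66.0 and 66.3 CPM per kb. The lower end of that order depends on the length used: per kb of the longest transcript eIF2gamma had 70.5 and 70.9 CPM at stage 5, and eIF2beta 72.1 and 69.0 CPM. The 5 subunits of eIF2B averaged 10.8 to 37.7 CPM per kb, with eIF2Bbeta highest in every group. The highest exceeded the lowest 3.77-fold in homozygotes and 3.55-fold in heterozygotes at stage 6-7, and 4.77-fold and 4.99-fold at stage 5, where eIF2Bdelta was lowest.

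**Figure D1:**
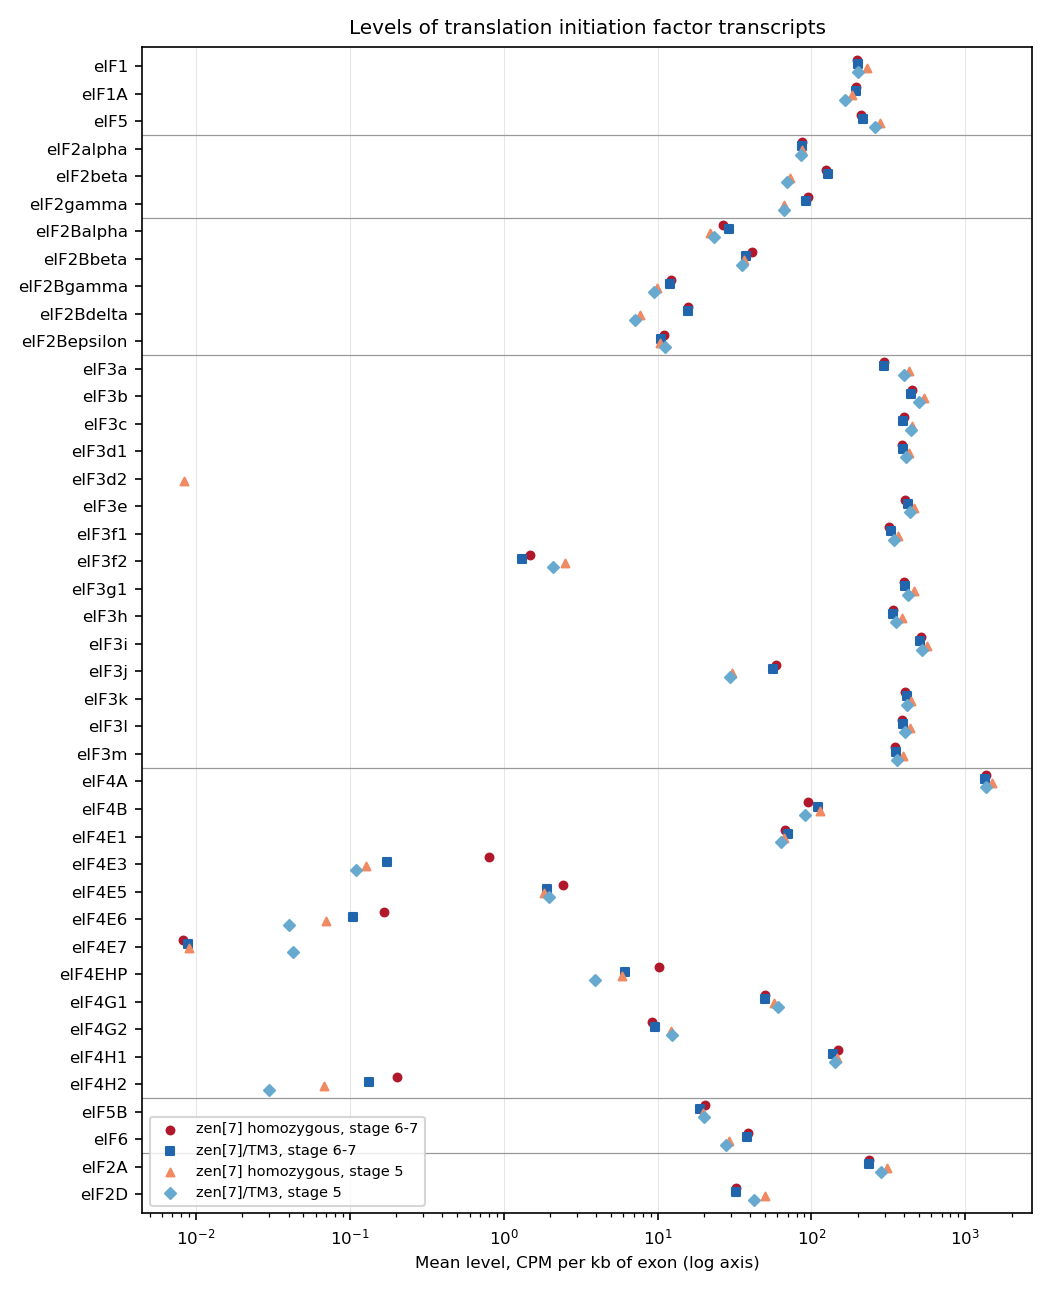
Mean level of each initiation factor gene in the 4 groups, in CPM per kb of exon on a log axis, with genes grouped by complex; groups of 2 libraries, no error bars, and a group mean of 0 is not drawn, which leaves eIF3g2 and eIF4E4 out. The 12 core eIF3 subunits sit between 297 and 567 CPM per kb in every group, whereas eIF4E3, eIF4E6, eIF4E7, eIF4H2 and eIF3d2 stay below 1 CPM per kb.

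Several factors are encoded by paralogues, and in each such pair the embryo libraries were dominated by 1 gene. Reads that fit several places equally well are not counted to a gene by HTSeq, so counts of near-identical stretches can be understated. Of the eIF4E genes other than eIF4E1, eIF4E5 had 2.27 and 2.70 CPM in homozygotes and 2.07 and 1.83 CPM in heterozygotes at stage 6-7, and 1.93 and 1.80 CPM and 1.74 and 2.27 CPM at stage 5. Per kb this was 2.54% to 3.88% of eIF4E1 at stage 6-7 and 2.64% to 3.65% at stage 5, ranges that overlap. eIF4E1 itself had 149 and 153 CPM in homozygotes and 154 and 159 CPM in heterozygotes at stage 6-7, and 145 and 150 CPM and 145 and 137 CPM at stage 5. With TMM scaling its level thus varied little.

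The remaining eIF4E genes were at or near the limit of detection. eIF4E4 had 0 counts in all 8 libraries, where a count of 0 allows up to 3 counts, or 0.0809 to 0.112 CPM, by counting error alone. Per kb eIF4E1 was at least 600-fold higher than that limit for eIF4E4 in every library. eIF4E6 had 3 and 5 counts in homozygotes and 1 and 4 counts in heterozygotes at stage 6-7, and 1 and 2 counts and 0 and 2 counts at stage 5. For eIF4E7 the counts were 1 and 0 in homozygotes and 0 and 1 in heterozygotes at stage 6-7, and 0 and 1 and 1 and 4 at stage 5. Both stayed too low to compare between groups.

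The same held for eIF3. eIF3d2 had 1 count in all, in homozygous stage 5 replicate 1, while its paralogue eIF3d1 had 767 and 793 CPM in homozygotes and 847 and 735 CPM in heterozygotes at stage 6-7, and 916 and 824 CPM and 808 and 835 CPM at stage 5. eIF3g2 had no count, while eIF3g1 had 412 and 405 CPM in homozygotes and 431 and 402 CPM in heterozygotes at stage 6-7, and 524 and 434 CPM and 437 and 433 CPM at stage 5. Against the limit that 0 counts allow, eIF3g1 was at least 4382-fold higher per kb in every library. Testis is a tissue where several of these paralogues are known to act, and testis markers were near 0 here (given above).

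In other pairs the minor gene was detectable. eIF3f2 had 1.24 and 1.88 CPM in homozygotes and 1.74 and 1.01 CPM in heterozygotes at stage 6-7, and 2.64 and 2.57 CPM and 1.86 and 2.55 CPM at stage 5. Its paralogue eIF3f1 had 422 and 410 CPM in homozygotes and 451 and 406 CPM in heterozygotes at stage 6-7, and 506 and 450 CPM and 453 and 447 CPM at stage 5. Per kb eIF3f2 was 0.315% to 0.573% of eIF3f1 at stage 6-7 and 0.513% to 0.712% at stage 5, with a small overlap between the stages. eIF4H2 had 6 and 21 counts in homozygotes and 8 and 10 counts in heterozygotes at stage 6-7, and 7 and 0 counts and 2 and 2 counts at stage 5. eIF4H1 had 654 and 658 CPM in homozygotes and 579 and 646 CPM in heterozygotes at stage 6-7, and 705 and 596 CPM and 623 and 631 CPM at stage 5. The 2 stages overlap for both eIF4H genes.

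eIF4G2, a second scaffold that the male germ line needs, was the most abundant of the minor paralogues relative to its partner. It had 84.2 and 82.9 CPM in homozygotes and 79.1 and 96.7 CPM in heterozygotes at stage 6-7, and 104 and 118 CPM and 111 and 115 CPM at stage 5. eIF4G1 had 320 and 337 CPM in homozygotes and 312 and 341 CPM in heterozygotes at stage 6-7, and 356 and 391 CPM and 360 and 435 CPM at stage 5. With TMM scaling both genes were thus lower in every stage 6-7 library, and their ratio per kb, 17.8% to 20.5% at stage 6-7 and 19.1% to 22.2% at stage 5, overlapped between the stages.

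Ratios of paralogues within a library do not depend on how libraries are scaled. Of 11 such ratios, the 6 with 10 or more counts of both genes in at least 2 libraries were compared between the stages, with the 4 libraries of each stage pooled over genotypes. eIF4E3 and eIF4H2 met that minimum only through stage 6-7 libraries, so their ratios entered because of the stage where they are high, and are given as a description. None passed an exact 2-sided permutation test with Benjamini-Hochberg adjustment over the 6 ratios, for which the smallest p possible was 0.0286. After the adjustment a single ratio at that p would not pass, so the test does not show that the ratios were unchanged. The log2 ratio at stage 6-7 minus that at stage 5 was 2.15 for eIF4H2 to eIF4H1, -0.60 for eIF3f2 to eIF3f1 and -0.16 for eIF4G2 to eIF4G1 (exact permutation p = 0.0571 and adjusted p = 0.114 for each of these). It was 1.54 for eIF4E3 to eIF4E1 (exact permutation p = 0.0857, adjusted p = 0.129), 0.64 for eIF4EHP to eIF4E1 (p = 0.114, adjusted p = 0.137) and 0.09 for eIF4E5 to eIF4E1 (p = 0.571, adjusted p = 0.571). The permutation took no account of genotype. For eIF4EHP to eIF4E1 the log2 ratio of homozygotes minus that of heterozygotes was 0.79 at stage 6-7 and 0.52 at stage 5, which widens the spread within each stage. Within a genotype, 2 libraries against 2 cannot give a permutation p below 0.333.

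**Figure D2:**
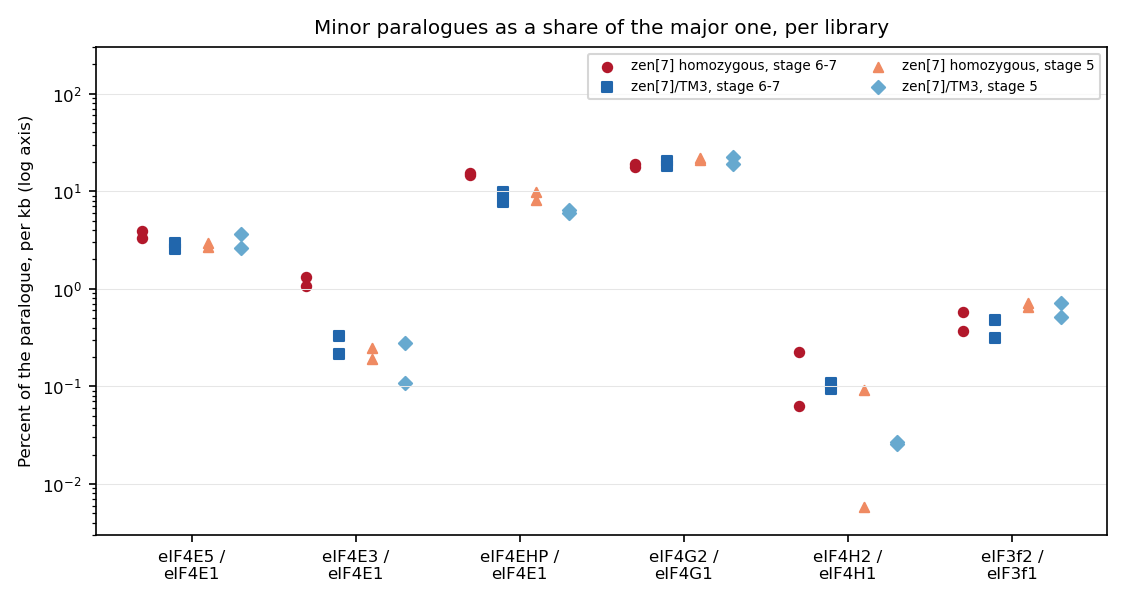
Level of the minor paralogue as a percent of the major one, per kb of exon, in each library, on a log axis; each point is 1 library and 0.5 counts were added to each gene. The eIF4E3 and eIF4EHP points of homozygotes at stage 6-7 lie above all others of their ratio, at 1.07% and 1.34% and at 15.5% and 14.8% of eIF4E1.

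With stage, initiation factors changed in both directions in each genotype. In homozygotes 7 of the 39 tested genes were called higher at stage 6-7 (17.9%), where 31.1% of all 9360 tested genes were, and 8 were called lower (20.5%), where 29% of all were, at an edgeR adjusted p under 0.05. In heterozygotes 10 were called higher (25.6%) and 6 lower (15.4%), against 28.4% and 26.5% of all tested genes. The 7 include eIF4E3, which was tested only because of its counts in homozygous stage 6-7 libraries (given below). The changes were mostly small: the median absolute log2 difference was 0.23 in homozygotes and 0.18 in heterozygotes for the tested initiation factors, against 0.59 and 0.54 for all tested genes. Of the 39 genes, 20 in homozygotes and 21 in heterozygotes differed by less than 0.25 on the log2 scale. In these whole-embryo libraries, fewer cells of a type and less RNA per cell cannot be told apart.

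Called higher in both genotypes were 6 genes, which are 6 of the 7 in homozygotes and 6 of the 10 in heterozygotes: eIF2beta, eIF2gamma, eIF2Bdelta, eIF3j, eIF4EHP and eIF6. Called lower in both were 5 genes, of 8 and of 6: eIF2A, eIF2D, eIF3a, eIF4G2 and eIF5. The share of all tested genes called the same way in both genotypes is not given here, so these counts are a list only. Scaling by library totals alone moved the log2 difference with stage of the median gene to 0.20 in homozygotes and 0.17 in heterozygotes, against 0.00 and 0.02 with TMM, and it raised the share of stage calls over all genes that are higher to 64.7% in homozygotes and 63.4% in heterozygotes, against 51.7% in each with TMM. Under it 14 of the 39 tested initiation factors were called higher and 3 lower in homozygotes, and 12 higher and 1 lower in heterozygotes. Of all 9360 tested genes this scaling called 3638 higher and 1987 lower in homozygotes, and 3352 and 1935 in heterozygotes. All 6 of the genes higher in both genotypes kept their calls under it, but of the 5 lower in both only eIF3a did.

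Among the eIF2 subunits, eIF2beta and eIF2gamma rose and eIF2alpha did not pass the test. eIF2beta, the subunit that contacts eIF5 and eIF2B, had 141 and 139 CPM in homozygotes and 144 and 145 CPM in heterozygotes at stage 6-7, against 80.4 and 82.2 CPM and 80.7 and 75.0 CPM at stage 5. The libraries of the 2 stages did not overlap, and the log2 difference was 0.79 (SE 0.08) in homozygotes and 0.89 (SE 0.08) in heterozygotes (edgeR adjusted p = 2.34e-06 and 8.46e-07). Of its exon bases 5.1% lie opposite ver, whose difference was 0.31 in homozygotes (edgeR adjusted p = 0.257) and which rose by 0.61 in heterozygotes (0.03), and their part was not tested. eIF2gamma had 213 and 204 CPM in homozygotes and 205 and 200 CPM in heterozygotes at stage 6-7, against 140 and 151 CPM and 157 and 136 CPM at stage 5. It rose by 0.52 (SE 0.09) in homozygotes and 0.47 (SE 0.09) in heterozygotes on the log2 scale (edgeR adjusted p = 0.000219 and 0.000545). Of the annotated exon bases of eIF2gamma 16.0% lie on the same strand in exons of Su(var)3-9, a histone methyltransferase gene that rose by 0.55 and 0.48 over the same libraries, and the part of the shared bases in the result was not tested. For eIF2alpha the log2 difference was -0.01 in homozygotes and 0.02 in heterozygotes. With library totals alone eIF2alpha was called higher at stage 6-7 in homozygotes.

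All 5 eIF2B genes but eIF2Bepsilon in heterozygotes (-0.08) had a positive log2 difference with stage, and eIF2Bdelta, a subunit of the regulatory part that senses phosphorylated eIF2, had the largest of them. It had 33.2 and 35.0 CPM in homozygotes and 32.1 and 36.5 CPM in heterozygotes at stage 6-7, against 16.3 and 17.0 CPM and 15.3 and 15.6 CPM at stage 5. Each stage 6-7 library was thus far above every stage 5 library, with a fold of 2.05 in homozygotes and 2.23 in heterozygotes (log2 1.03 and 1.15, edgeR adjusted p = 2.54e-06 and 1.03e-06). eIF2Balpha and eIF2Bgamma, at log2 0.27 and 0.30 in homozygotes (adjusted p = 0.0504 and 0.0514), rose by 0.33 and 0.35 in heterozygotes (edgeR adjusted p = 0.0225 and 0.0280). Leaving out heterozygous stage 5 replicate 2 or stage 6-7 replicate 2 ended the call for eIF2Balpha (adjusted p = 0.239 and 0.125), as did the same libraries (0.159 and 0.218) and stage 5 replicate 1 (0.0952) for eIF2Bgamma.

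eIF3 split between its detachable subunit and its core. eIF3j had 80.9 and 78.7 CPM in homozygotes and 75.1 and 78.1 CPM in heterozygotes at stage 6-7, against 41.8 and 41.5 CPM and 40.3 and 40.1 CPM at stage 5. It rose by 0.94 (SE 0.09) in homozygotes and 0.93 (SE 0.09) in heterozygotes on the log2 scale (edgeR adjusted p = 1.08e-06 and 1.33e-06), with replicates that differed by a few percent. eIF3a, the largest core subunit, had 1155 and 1158 CPM in homozygotes and 1162 and 1157 CPM in heterozygotes at stage 6-7, against 1698 and 1668 CPM and 1539 and 1558 CPM at stage 5. It fell by 0.54 (SE 0.08) and 0.42 (SE 0.08) on the log2 scale (edgeR adjusted p = 2.70e-05 and 0.000299), the largest fall of the 12 core subunits in either genotype.

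The other core subunits lay closer to no change. All 12 had a negative log2 difference in homozygotes and 11 of 12 in heterozygotes, with medians of -0.17 and -0.06, but only 3 of 12 were negative in each genotype when libraries were scaled by their totals alone. Besides eIF3a, eIF3b and eIF3g1 were called lower in homozygotes, and with library totals alone neither was (log2 -0.07, edgeR adjusted p = 0.389, for eIF3b and -0.03, adjusted p = 0.805, for eIF3g1). eIF3b, a scaffold of the core, had 1213 and 1187 CPM in homozygotes and 1199 and 1167 CPM in heterozygotes at stage 6-7, against 1487 and 1418 CPM and 1362 and 1310 CPM at stage 5. Its log2 difference was -0.27 in homozygotes (edgeR adjusted p = 0.00715) and -0.18 in heterozygotes (adjusted p = 0.0694), and the difference between these, -0.10, had an adjusted p of 0.883. For eIF3g1 it was -0.23 in homozygotes (adjusted p = 0.0467) and -0.06 in heterozygotes (adjusted p = 0.605), with a difference of -0.17 (adjusted p = 0.843). The eIF3b call did not hold when homozygous stage 6-7 replicate 1 (adjusted p = 0.0511) or replicate 2 (0.0818) was dropped. The eIF3g1 call did not hold without homozygous stage 5 replicate 1 (adjusted p = 0.368), either homozygous stage 6-7 library (0.14 and 0.189) or either heterozygous stage 5 library (0.0748 and 0.0734).

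Among the factors of scanning and tRNA delivery, eIF5, the GTPase activator of eIF2, fell. It had 665 and 688 CPM in homozygotes and 702 and 675 CPM in heterozygotes at stage 6-7, against 916 and 874 CPM and 797 and 854 CPM at stage 5, a log2 difference of -0.40 (SE 0.08) and -0.26 (SE 0.08) (edgeR adjusted p = 0.000580 and 0.0123). Of its annotated exon bases 80.8% are shared on the same strand with CG46312, whose ID has no row in the count tables. eIF2A had 663 and 680 CPM in homozygotes and 704 and 627 CPM in heterozygotes at stage 6-7, against 900 and 838 CPM and 779 and 820 CPM at stage 5, and fell by 0.37 (SE 0.09) and 0.26 (SE 0.09) on the log2 scale (edgeR adjusted p = 0.00183 and 0.0173). Both genes were lower in every stage 6-7 library with TMM scaling. eIF2D had 60.9 and 58.9 CPM in homozygotes and 63.8 and 54.8 CPM in heterozygotes at stage 6-7, against 92.2 and 90.1 CPM and 74.6 and 81.0 CPM at stage 5. It fell by 0.61 (SE 0.10) and 0.39 (SE 0.10) on the log2 scale (edgeR adjusted p = 0.000127 and 0.00424). It shares 0.3% of its exon bases with Pglym78 on the opposite strand, which fell by 0.99 and 0.78, and their part was not tested. In heterozygotes the calls of eIF5 and eIF2A were lost without stage 5 replicate 2 (adjusted p = 0.0882 and 0.0988) and without stage 6-7 replicate 2 (0.0604 and 0.138), and that of eIF2D without stage 6-7 replicate 2 (0.0582).

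eIF1A, which holds the scanning ribosome open with eIF1, rose by 0.23 on the log2 scale in heterozygotes (edgeR adjusted p = 0.0284) and had a difference of 0.09 in homozygotes (adjusted p = 0.334). The heterozygous call was lost when any of 6 libraries was left out, with adjusted p from 0.0594 (without heterozygous stage 6-7 replicate 1) to 0.276 (without heterozygous stage 5 replicate 2). eIF1 had 134 and 135 CPM in homozygotes and 135 and 139 CPM in heterozygotes at stage 6-7, against 167 and 146 CPM and 148 and 127 CPM at stage 5. Its stage difference of -0.22 in homozygotes did not pass (edgeR adjusted p = 0.0681), nor did that in heterozygotes (adjusted p = 0.996), and only the homozygous stage 5 library that stood apart exceeded 150 CPM.

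eIF6 rose in both genotypes. It had 42.2 and 38.9 CPM in homozygotes and 38.5 and 41.6 CPM in heterozygotes at stage 6-7, against 30.4 and 31.3 CPM and 31.2 and 27.8 CPM at stage 5 (log2 0.39 and 0.44, both SE 0.11, edgeR adjusted p = 0.00563 and 0.00298). Dropping homozygous stage 6-7 replicate 1 ended the homozygous call (adjusted p = 0.0742), and dropping heterozygous stage 5 replicate 2 the heterozygous one (0.0672). eIF5B, the GTPase of subunit joining, did not pass, with log2 differences of 0.05 in homozygotes and -0.09 in heterozygotes.

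Of the eIF4F genes, eIF4A, eIF4E1 and eIF4H1 did not pass the test with stage in either genotype, with log2 differences between -0.11 and 0.14. For eIF4E1 this depended on TMM scaling: with library totals alone it was called higher at stage 6-7 in both genotypes. The scaffolds were lower at stage 6-7. eIF4G2 fell by 0.41 (SE 0.11) in homozygotes and 0.36 (SE 0.11) in heterozygotes on the log2 scale (edgeR adjusted p = 0.00412 and 0.00972), and 8.6% of its exon bases lie in same-strand exons of CG33111, which fell by 0.60 and 0.50. The part of these shared bases was not tested. eIF4G1 fell by 0.28 (SE 0.10) in heterozygotes (edgeR adjusted p = 0.0250) and had a difference of -0.19 in homozygotes (adjusted p = 0.122). With library totals alone the heterozygous difference of eIF4G1 was -0.13 (adjusted p = 0.311), and those of eIF4G2 were -0.21 in each genotype (adjusted p = 0.12 and 0.131). Leaving out heterozygous stage 6-7 replicate 1 ended the heterozygous calls of eIF4G2 (adjusted p = 0.122) and eIF4G1 (0.145), and leaving out heterozygous stage 5 replicate 2 ended that of eIF4G1 (0.239).

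**Figure D3:**
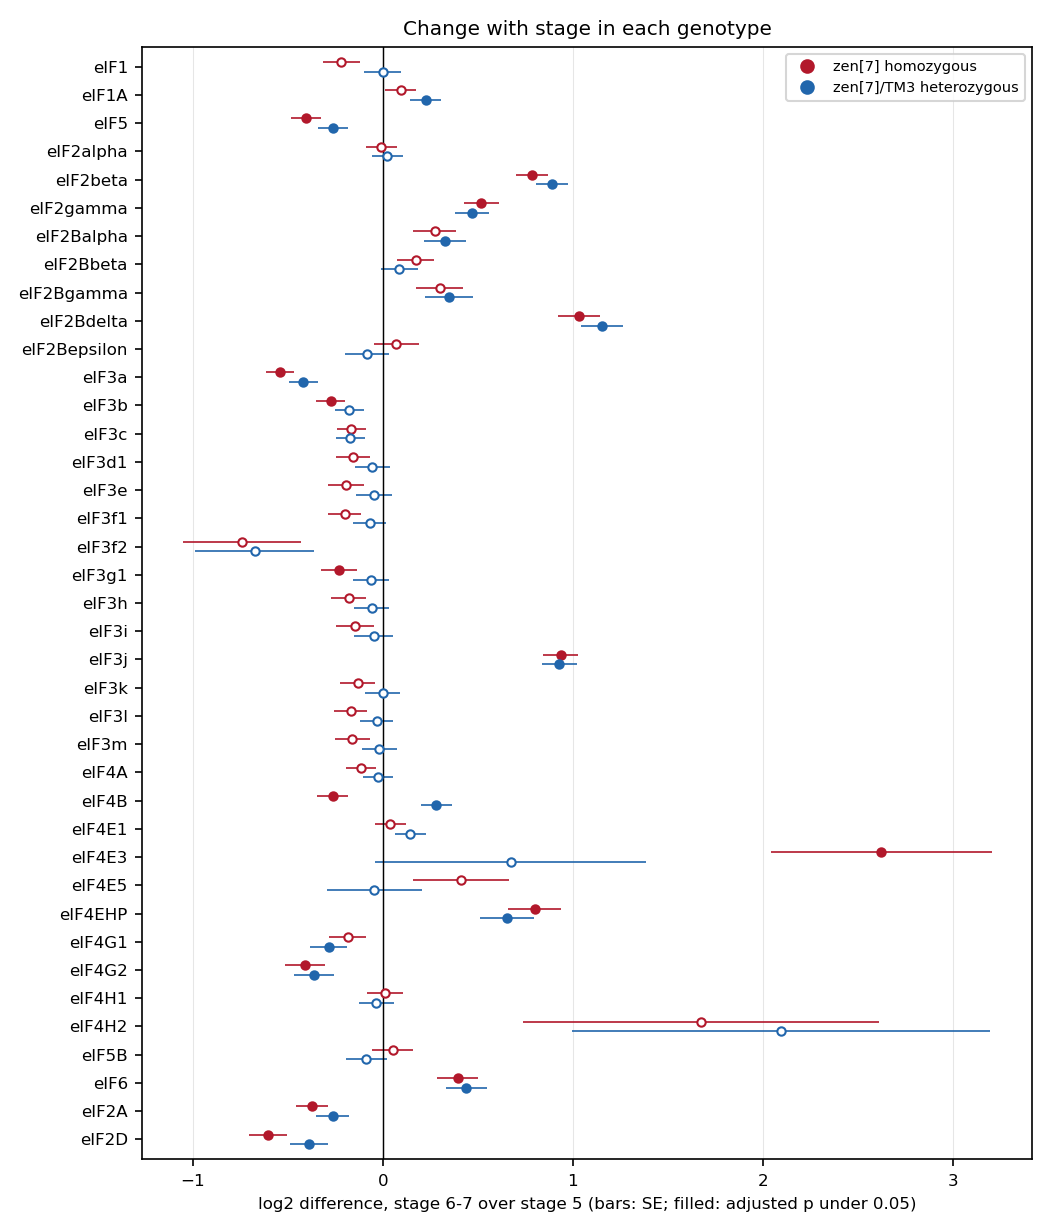
Log2 difference of stage 6-7 over stage 5 for the 39 tested genes, in homozygotes (upper marker of each pair) and heterozygotes (lower marker), with bars of 1 SE; filled markers have an edgeR adjusted p under 0.05. The 12 core eIF3 subunits lie between -0.54 and 0.00, of which 3 in each genotype stay negative when libraries are scaled by their totals alone, while eIF3j, eIF2beta and eIF2Bdelta lie between 0.79 and 1.15 in both genotypes.

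**Figure D4:**
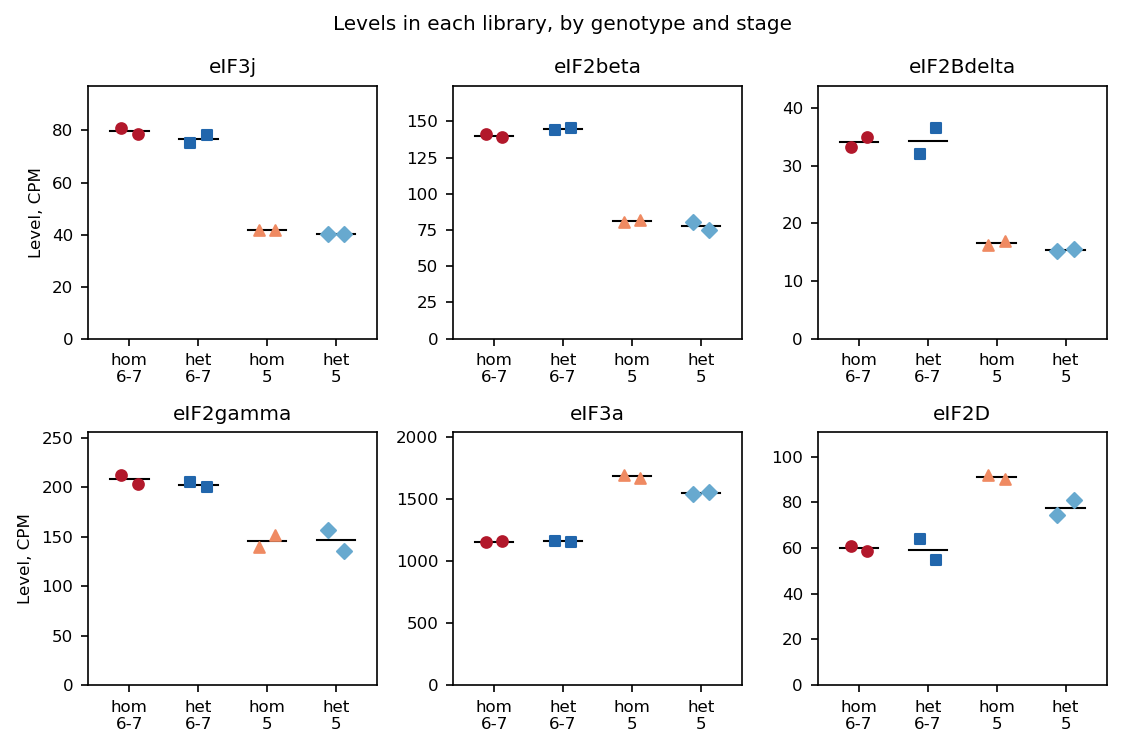
Level in CPM in each library for 6 of the genes that changed with stage in both genotypes; points are libraries, lines are means of 2, and axes start at 0. The stage 6-7 libraries of both genotypes lie above the stage 5 libraries for eIF3j, eIF2beta, eIF2Bdelta and eIF2gamma, and below them for eIF3a and eIF2D.

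The genotype comparisons asked which of these transcripts differ with zen[7] homozygosity at each stage. At stage 6-7, 1 of the 39 tested genes was called higher in homozygotes (2.56%), where 0.524% of all tested genes were, and 0 were called lower, where 1.25% were. At stage 5, edgeR called 0 higher and 0 lower, where 0.288% and 1.34% of all tested genes were called, with 3 genes at an unadjusted p under 0.05, and DESeq2 called 1 and limma-voom 0. Of the 39 genes, 35 at stage 6-7 and 36 at stage 5 differed by less than 0.25 on the log2 scale. Genotype differences were small over all tested genes too, with a median absolute log2 difference of 0.10 at stage 6-7 and 0.15 at stage 5. For the 39 genes it was 0.04 and 0.11. The median log2 difference was 0.01 at stage 6-7, as for all tested genes (0.01), and 0.09 at stage 5, where 32 of 39 were positive and the median of all genes was 0.00. Without homozygous stage 5 replicate 1, the library that stood apart, the stage 5 median was 0.04 and 25 of 39 were positive.

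The gene called at stage 6-7 was eIF4EHP, on the minus strand of arm 3R at chr3R:24063077-24108960 in BDGP6.54. It had 66.7 and 65.0 CPM in homozygotes and 34.4 and 44.7 CPM in heterozygotes at stage 6-7, and 33.6 and 42.0 CPM in homozygotes and 26.9 and 23.3 CPM in heterozygotes at stage 5. Both homozygous libraries lay above both heterozygous ones at each stage, and within each genotype both stage 6-7 libraries lay above both stage 5 libraries. The log2 difference of homozygotes over heterozygotes was 0.74 (SE 0.14, edgeR adjusted p = 0.0103) at stage 6-7 and 0.59 (SE 0.14, adjusted p = 0.0565) at stage 5, and the difference between these, 0.14, had an adjusted p of 0.902. With stage it rose by 0.80 in homozygotes and 0.65 in heterozygotes (edgeR adjusted p = 0.000205 and 0.00129), comparisons that share libraries with those between genotypes.

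The stage 6-7 call of eIF4EHP held in 15 of 18 alternative settings and ended when homozygous stage 6-7 replicate 1 (adjusted p = 0.0705), homozygous stage 6-7 replicate 2 (0.053) or heterozygous stage 6-7 replicate 1 (0.13) was dropped. At stage 5 it was past the threshold in 8 of 18, among them DESeq2 (adjusted p = 0.0086) and leaving out homozygous stage 5 replicate 1 (0.0171). eIF4E1 differed little between groups with TMM scaling. Relative to eIF4E1, eIF4EHP was 15.5% and 14.8% per kb in homozygotes and 7.79% and 9.81% in heterozygotes at stage 6-7. At stage 5 it was 8.06% and 9.77% in homozygotes and 6.45% and 5.91% in heterozygotes.

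eIF4EHP shares 447 of its 6418 exon bases (7.0%) with Syx1A, a syntaxin gene of membrane fusion on the same strand. Syx1A was also higher in homozygotes, with 134 and 142 CPM in homozygotes and 78.3 and 95.6 CPM in heterozygotes at stage 6-7, and 117 and 131 CPM and 87.7 and 87.2 CPM at stage 5. Its log2 difference was 0.67 (SE 0.10, edgeR adjusted p = 0.00233) at stage 6-7 and 0.50 (SE 0.10, adjusted p = 0.0280) at stage 5. With stage Syx1A had differences of 0.16 and -0.01, which did not pass, whereas eIF4EHP rose in both genotypes. The part of the shared exons in the genotype difference of eIF4EHP was not tested, and both genes lie on chromosome 3, where zen[7] homozygosity and the absence of TM3 cannot be told apart. The summed cellularization genes, which fall with stage, were also lower in homozygotes (180 and 180 CPM) than in heterozygotes (250 and 221 CPM) at stage 6-7, and overlapped at stage 5. The part of a difference in age between the pools was not tested.

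eIF4E3, a cap-binding paralogue that male meiosis needs, was detected at low counts throughout, at chr3L:8229224-8230568 in BDGP6.54. It had 27 and 32 counts in homozygotes and 8 and 5 counts in heterozygotes at stage 6-7, and 4 and 4 counts in homozygotes and 6 and 2 counts in heterozygotes at stage 5, or 0.73 and 0.94 CPM, 0.22 and 0.14 CPM, 0.15 and 0.12 CPM, and 0.17 and 0.06 CPM. The homozygous stage 6-7 libraries lay above all the others. Only these 2 libraries reached the minimum count of 10, so eIF4E3 entered the tests through the group where it is high, and its differences are a description. The log2 difference with stage was 2.62 (SE 0.58, edgeR adjusted p = 0.00139) in homozygotes and 0.67 (SE 0.71, adjusted p = 0.447) in heterozygotes, and the difference between the genotypes in this change, 1.95, did not pass (adjusted p = 0.768). At stage 6-7 homozygotes over heterozygotes differed by 2.16 (SE 0.53, edgeR adjusted p = 0.0609), which passed in 2 of 17 alternatives (adjusted p 0.0249 to 0.556). The testis markers, summed, were 0.67 and 0.62 CPM in homozygotes and 0.28 and 0.43 CPM in heterozygotes at stage 6-7. At stage 5 the sums were 0.59 and 0.83 CPM in homozygotes and 0.32 and 0.53 CPM in heterozygotes. Most of each sum was ocn, a gene on arm 3R. At stage 6-7 ocn had 22 and 13 counts in homozygotes and 9 and 11 counts in heterozygotes. The markers dj, Mst84Da and Pglym87 had 0 counts in every library. The part of the testis markers in the result was not tested.

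eIF4B, an RNA-binding cofactor of the helicase, changed with stage in opposite directions in the 2 genotypes. It lies at chr3L:27842669-27858271 and had 175 and 188 CPM in homozygotes and 207 and 220 CPM in heterozygotes at stage 6-7, and 217 and 219 CPM in homozygotes and 178 and 173 CPM in heterozygotes at stage 5. No pair of groups compared overlapped: homozygotes were below heterozygotes at stage 6-7 and above them at stage 5. With stage it fell by 0.26 (SE 0.08, edgeR adjusted p = 0.0126) in homozygotes and rose by 0.28 (SE 0.08, adjusted p = 0.00963) in heterozygotes on the log2 scale. The test of the difference itself gave -0.54 (SE 0.12) with an edgeR adjusted p of 0.125, so it was not called over all genes, although it was in 6 of 17 alternative settings.

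Between genotypes eIF4B differed by -0.23 (SE 0.08, edgeR adjusted p = 0.306) at stage 6-7 and 0.31 (SE 0.08, adjusted p = 0.0892) at stage 5. Dropping homozygous stage 6-7 replicate 1 ended the stage call in homozygotes (adjusted p = 0.163), and dropping heterozygous stage 5 replicate 2 (0.133) or stage 6-7 replicate 2 (0.0689) ended that in heterozygotes. With libraries scaled by their totals alone the fall in homozygotes was -0.06 (adjusted p = 0.531). Over all tested genes, 0.0107% were called higher and 0.0641% lower in this test of the difference, and 0 of the 39 initiation factors were called by edgeR, with 1 (eIF4B) at an unadjusted p under 0.05, DESeq2 calling 1 and limma-voom 0.

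eIF2D completed the 3 genes with the smallest p at stage 5. Its homozygous libraries (92.2 and 90.1 CPM) lay above the heterozygous ones (74.6 and 81.0 CPM) at stage 5, and the genotypes overlapped at stage 6-7. The log2 difference was 0.01 at stage 6-7 and 0.23 (SE 0.10, edgeR adjusted p = 0.361) at stage 5, and neither passed. At each stage 3 of the 20 tested initiation factors on chromosome 3 and 0 of the 19 on other chromosomes had an unadjusted p under 0.05 in edgeR. Over all tested genes this held for 12.7% on chromosome 3 and 3.41% off it at stage 6-7, and for 14.8% and 10.3% at stage 5. The 3 at stage 6-7 include eIF4E3, which was tested only because of its counts in homozygous stage 6-7 libraries. Off chromosome 3 the largest absolute log2 difference was 0.17 at stage 6-7 and 0.24 at stage 5, both of eIF3f2, a gene near 2 CPM.

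**Figure D5:**
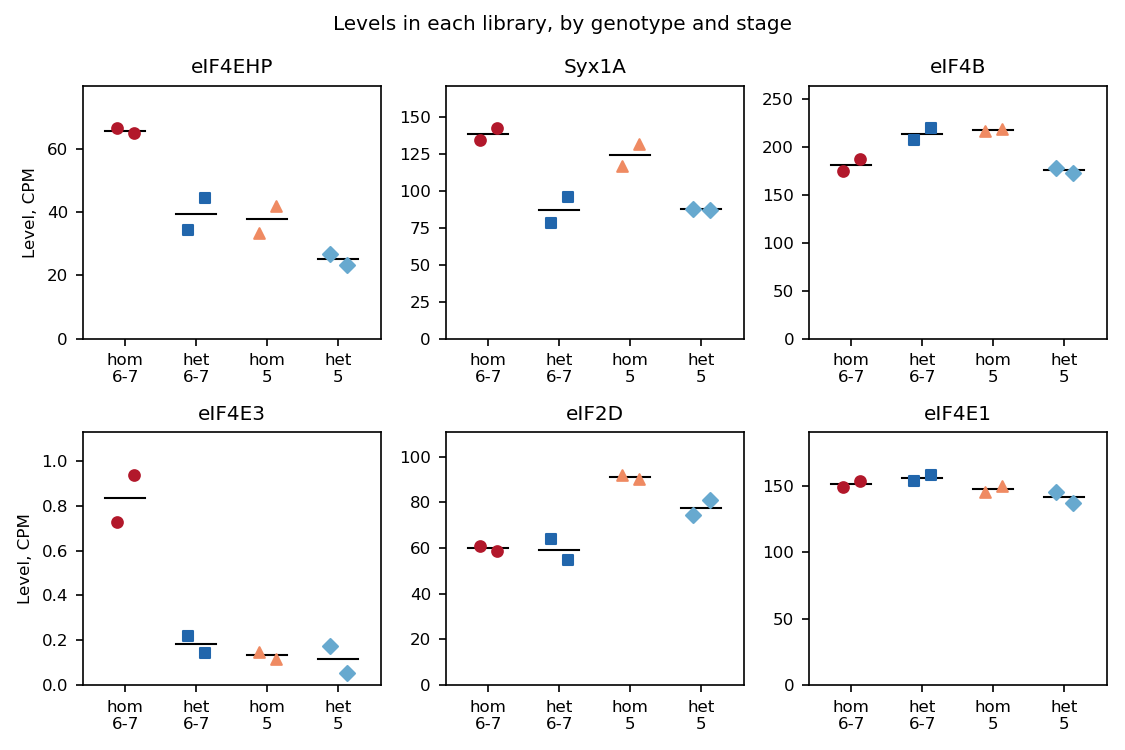
Level in CPM in each library for the genes with the smallest p between genotypes, with the eIF4EHP neighbour Syx1A and, for scale, eIF4E1; points are libraries, lines are means of 2, and axes start at 0. eIF4EHP and Syx1A are higher in homozygotes at both stages, whereas eIF4B is lower in homozygotes at stage 6-7 and higher at stage 5.

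Lists of regulators and partners were read against all tested genes, of which 31.1% were called higher and 29% lower with stage in homozygotes, and 28.4% higher and 26.5% lower in heterozygotes. Of the 4 measured genes that set or read the phosphorylation of eIF2, 3 fell in both genotypes. PEK, the eIF2 kinase of the endoplasmic reticulum, had 35.0 and 35.4 CPM in homozygotes and 30.0 and 33.6 CPM in heterozygotes at stage 6-7, against 338 and 284 CPM and 326 and 304 CPM at stage 5. Its log2 difference was -3.14 in homozygotes and -3.31 in heterozygotes (edgeR adjusted p = 1.34e-10 and 7.66e-11). For the amino acid sensing kinase Gcn2 it was -1.12 and -1.48, and for the phosphatase subunit PPP1R15 -0.65 and -0.57. The last of the list, the transcription factor crc, had 0.06 in homozygotes and 0.21 in heterozygotes (edgeR adjusted p = 0.511 and 0.0324), with 73.5% of its exon bases shared with another gene, and its heterozygous call ended when any of 6 libraries was dropped (adjusted p 0.0608 to 0.353).

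Of 7 tested proteins that bind eIF4E or repress capped mRNA, 1 rose and 4 fell in homozygotes, and 2 rose and 4 fell in heterozygotes (3 and 3 in each with library totals alone), where 31.1% and 29% of all tested genes did in homozygotes and 28.4% and 26.5% in heterozygotes. Thor, the eIF4E-binding protein that TOR signalling inactivates, had 377 and 465 CPM in homozygotes and 340 and 334 CPM in heterozygotes at stage 6-7, against 167 and 217 CPM and 170 and 85.5 CPM at stage 5. It rose by 1.13 and 1.40 on the log2 scale (edgeR adjusted p = 0.0445 and 0.0253), calls that ended when any of 6 libraries was dropped (adjusted p 0.0879 to 0.222 in homozygotes and 0.0615 to 0.0943 in heterozygotes). 4E-T, an eIF4E partner in repressed mRNPs, fell by 1.09 and 1.22 (edgeR adjusted p = 3.81e-06 and 1.49e-06), and Gyf, which binds eIF4EHP, fell by 0.54 and 0.70. The repressors tral and me31B fell by 0.37 and 0.46 in homozygotes and by 0.48 and 0.29 in heterozygotes. Dropping homozygous stage 6-7 replicate 1 ended the homozygous call of tral (adjusted p = 0.093), and dropping either heterozygous stage 5 library (0.0757 and 0.0641) or heterozygous stage 6-7 replicate 2 (0.14) ended the heterozygous call of me31B. The eIF4E-binding repressor cup was listed at 0 in every library, and 100% of its annotated exon bases are shared with other genes. For brat, a partner of eIF4EHP, the difference was 0.28 in homozygotes and 0.21 in heterozygotes (edgeR adjusted p = 0.0595 and 0.16).

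Of 8 other initiation proteins, edgeR called 0 higher in either genotype, 6 lower in homozygotes and 1 lower in heterozygotes, where 29% and 26.5% of all tested genes were called lower. With library totals alone 1 was higher in each and 2 and 1 were lower, and without both libraries that stood apart 6 and 4 were lower. DENR, which with MCTS1 lets ribosomes reinitiate, fell by 1.13 in homozygotes and 0.70 in heterozygotes (edgeR adjusted p = 3.09e-06 and 0.000244), and 65.6% of its exon bases lie opposite Polr3I. The DEAD-box helicase gene bel, on arm 3R, had 159 and 159 CPM in homozygotes and 239 and 264 CPM in heterozygotes at stage 6-7, and 238 and 231 CPM and 273 and 309 CPM at stage 5. It was lower in homozygotes at stage 6-7 (log2 -0.66, edgeR adjusted p = 0.000682), and at stage 5 the difference was -0.31 (adjusted p = 0.121).

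Of 13 TOR pathway genes, 5 rose and 4 fell in homozygotes, and 3 rose and 4 fell in heterozygotes, shares near those of all tested genes. The TOR inhibitor Tsc1 fell by 2.03 and 1.94 (edgeR adjusted p = 6.37e-10 and 1.05e-09), and REPTOR, a transcription factor that TOR holds inactive, rose by 1.23 and 0.97 (edgeR adjusted p = 1.95e-05 and 0.000145). Pdk1, the kinase that activates Akt, lies on arm 3L and had 55.2 and 53.0 CPM in homozygotes and 92.9 and 80.2 CPM in heterozygotes at stage 5. The log2 difference was -0.68 (edgeR adjusted p = 0.003), a call that ended without heterozygous stage 5 replicate 1 (log2 -0.57). At stage 6-7 the genotypes overlapped, with 78.5 and 74.2 CPM in homozygotes and 76.2 and 83.5 CPM in heterozygotes.

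Of 10 elongation and termination factors, 3 rose and 5 fell in homozygotes, and 3 rose and 3 fell in heterozygotes, against 31.1% and 29%, and 28.4% and 26.5%, of all tested genes. With library totals alone 2 and 0 fell, and without both libraries that stood apart 4 and 6. The selenocysteine elongation factor eEFSec rose by 1.62 and 1.47 on the log2 scale (edgeR adjusted p = 4.47e-06 and 1.05e-05), and the ribosome rescue factor pelo by 1.20 and 1.08 (edgeR adjusted p = 4.75e-06 and 1.33e-05). eRF1, which reads stop codons, fell by 0.45 and 0.30, and its GTPase partner eRF3 rose by 0.38 and 0.37. In heterozygotes the eRF1 call ended without stage 6-7 replicate 2 (adjusted p = 0.0937) and with library totals alone (0.16), and the eRF3 call without stage 5 replicate 2 (0.0557).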

How the data were processed

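RNA of 8 whole-embryo libraries (100 bp paired reads, 200 bp inserts, per the labels' protocols) was used. The authors deposited whole-number read counts per gene, not normalized; STAR and HTSeq are named, with no versions, per the submitters' processing notes. Not given in the sources used here are the build, the annotation and the strand setting, so reads from overlapping or antisense genes may be misassigned. Lines that name no gene (12.89% to 18.22% of reads) were left out.

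Symbols, positions and exon lengths came from Ensembl 115 (BDGP6.54), matched by gene ID (17188 of 17468). Counts were scaled with TMM, passed through filterByExpr (minimum count 10, which kept 9360 genes) and fitted over all libraries with 1 mean per group in edgeR 4.0.16 (R 4.3.3; robust glmQLFit, then glmQLFTest). Calls used a Benjamini-Hochberg adjusted p under 0.05 over all tested genes. The fit was tested on simulated data with a fixed spread and changes only in genes of higher count. That test does not cover genes of low count or the spread between these pools. SE is the absolute log2 difference over the square root of F. Paralogue ratios used 0.5 added counts. Limits on 0 counts cover counting error only.

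The genes, lists and tests were chosen with earlier results of these data known. Values per library are given for genes called, or with the 3 smallest p, between genotypes or in the test of the difference, for the 6 largest called rises and falls with stage, and for paralogue pairs, with up to 4 genes named per list; Thor, cup, brat, Pdk1 and eRF3 were added after their values were seen. Alternatives were RLE and library-total scaling, 2 other filters, DESeq2 1.42.0, limma-voom (limma 3.58.1), replicate blocks, the compared groups alone, each library left out (its partner then stands alone and is taken to have the spread of the remaining groups), and both libraries that stood apart left out. List symbols without a match (nos, vas, Gcn1, Tor, S6k, eEF1alpha1, eEF5, eIF5A) were not analysed here.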

Additional observations from a re-analysis of the deposited data

Results flagged for a closer look

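eIF4B was the tested initiation factor whose libraries did not overlap between stages in either genotype and moved opposite ways. Both homozygous libraries at stage 6-7 (175 and 188 CPM) lay below both at stage 5 (217 and 219 CPM), and both heterozygous libraries at stage 6-7 (207 and 220 CPM) lay above both at stage 5 (178 and 173 CPM). The difference between the changes was -0.54 on the log2 scale (edgeR adjusted p = 0.125 over all tested genes, 0.0141 to 0.566 over the 17 alternatives), so it did not pass with the adjustment. With library totals alone the difference in homozygotes was -0.06 (edgeR adjusted p = 0.531). None of its annotated exon bases are shared with another gene.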

How the results depend on the processing

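The 40 gene and comparison pairs that were called, or had the smallest p, gave 714 values under the alternatives: 638 stayed on their side of the threshold, 57 lost a call, 19 gained one and 0 changed sign. Among all 39 tested genes, 12 changed sign with stage in homozygotes and 14 in heterozygotes under library totals alone, 0 of them called with TMM. At stage 6-7 the gained genotype call was eIF4E3, whose differences are a description (given above). The genotype call count there was 2 (against 1) without the low-count filter and with a replicate block within stage. At stage 5 it was 1 (against 0) without the filter and with DESeq2, 2 with either replicate block and 2 without both libraries that stood apart, and 0 to 1 with a library left out. For the difference between genotypes in the stage change it was 1 (against 0) under the same 5 settings, and 0 to 1 with a library left out. In homozygotes 15 stage calls became 11 to 20 with a library left out. In heterozygotes 16 became 10 with a replicate block within stage and 25 without both libraries that stood apart, and with a library left out 8 (without heterozygous stage 5 replicate 2) to 18, with 9 without heterozygous stage 6-7 replicate 2. The shares of all tested genes called under these settings are not given here, so these counts do not set initiation factors apart from other genes. The cause of these changes was not tested. No pairing by replicate number was seen (correlations of deviations -0.06 to 0.04). Such correlations cannot show that libraries of the same number were handled apart, and the labels do not say. No paralogue ratio passed under any alternative, and without both libraries that stood apart none could pass, as too few arrangements remain. The ratio of eIF4E5 to eIF4E1 changed sign, to -0.00794, without homozygous stage 6-7 replicate 2, and reached 0.195 without heterozygous stage 5 replicate 2. With the longest transcript as length, 7 levels per kb moved beyond their spread, by at most 1.41 times (eIF4EHP, 9.27 CPM per kb against 6.55). The test of the difference with only the groups compared was not run, as it uses all groups. Depth limits eIF4E3, eIF4H2 and the 5 untested paralogues, which had 32 counts or fewer per library.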
